A study of Homo sapiens with 8 samples.

Results

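The genes described here encode the nuclear subunits of the mitochondrial respiratory chain (complexes I to IV) and of the ATP synthase (complex V). They were followed on gels of 2 stiffnesses in H9, an established line of human embryonic stem cells. Members were taken by symbol from the deposited gene tables: NDUFA, NDUFB, NDUFC, NDUFS and NDUFV genes, SDHA to SDHD, UQCR, COX4 to COX8 and ATP5 genes. Rows that merge several genes, numbered pseudogenes and antisense genes were left out. This gave 66 genes in all, 64 of 34690 loci at day 3.5 and 65 of 33575 loci at day 0, with 63 listed on both days.

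There were 4 groups of 2 RNA libraries: cells at day 3.5 of mesoderm induction on 400 Pa (soft), the same on 60 kPa (stiff), undifferentiated cells (day 0) on 400 Pa, and undifferentiated cells on 60 kPa. Induction used bFGF, Activin, VEGF and BMP4 together, and all groups are the one line H9, kept on gels in medium conditioned by feeder cells. Whether both libraries of a group are separate cultures is not in the labels, so p-values of the authors measure the spread between libraries alone, and that spread may be technical. Each table gives 1 FPKM value (fragments normalised to transcript length and library size) per group and none per library, so no value here has an SD of its own, and read depth is unknown.

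Complex I (NADH dehydrogenase), complex II (succinate dehydrogenase), complex III (cytochrome bc1) and complex IV (cytochrome c oxidase) pass electrons from NADH and succinate to oxygen. Complexes I, III and IV pump protons across the inner mitochondrial membrane, and the ATP synthase uses that gradient to make ATP. Pluripotent stem cells are known for a metabolism that leans on glycolysis, and their mitochondria and respiration are remodelled as they differentiate. The core subunits carry the cofactors and catalysis, while accessory (supernumerary) subunits serve assembly and stability. Part of the chain is encoded by mitochondrial DNA and is not among these genes.

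Summed over short lists, the cells carried the marker genes of their labels, though not every gene followed its list. The summed FPKM of 7 pluripotency genes was 411 on 400 Pa and 678 on 60 kPa at day 3.5, against 1390.3 and 1458 at day 0. With induction 6 of the 7 were lower on 400 Pa and 5 of 7 on 60 kPa. ZFP42 was higher on both gels (15.3 and 10.2 FPKM, against 4.49 and 2.90), and SOX2 on 60 kPa (164, against 116). LIN28A was near level on 60 kPa (239, against 249). The sum of the 7 listed mesoderm and primitive streak genes was 162 on 400 Pa and 53.3 on 60 kPa at day 3.5, against 10.8 and 14.6 at day 0. All 7 were higher at day 3.5 on both gels. KDR held 9.07 and 13.5 FPKM of the day 0 sums and was near level on 60 kPa (14.8 at day 3.5). Sums for other lineages also often rested on 1 gene. The 4 neuroectoderm genes summed to 88.3 FPKM on soft gels and 179.7 on stiff gels at day 3.5, against 138 and 82.4 at day 0, most of it OTX2 (69.3 and 152, against 136 and 82.2), with SOX1 under 1 FPKM throughout. The amnion and trophoblast genes summed to 118 and 22.3 FPKM at day 3.5 (4 genes), VTCN1 holding 81.3 and 7.44, against 3.29 and 0.557 at day 0 (3 genes, CDX2 not analysed). The 4 fibroblast genes summed to 100.1 and 62.0 FPKM at day 3.5, against 154 and 208 at day 0, where THY1 held 135 and 191. DCN, by contrast, had 38.7 and 3.79 FPKM at day 3.5, against 0.0977 and 0 at day 0. Of 3 endoderm genes GATA6 had 6.76 and 1.58 FPKM at day 3.5, while SOX17 and FOXA2 were under 1 FPKM; at day 0 GATA6 and FOXA2 were both under 1 FPKM (SOX17 not analysed). SOX1 and FOXA2 were listed at 0 on 60 kPa at day 0. The groups compared below therefore differ in their mix of lineage markers, and the part of that mix in the members' values was not tested. In these bulk samples fewer cells of a type and less RNA per cell cannot be told apart.

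The respiratory chain genes were expressed at steady, mostly high levels in every group. Of the 66 members, 58 had at least 10 FPKM in all 4 groups, and over these the highest group was a median of 1.44 times the lowest. The order of the genes by level changed little: across 60 members the rank correlation between pairs of groups lay between 0.979 and 0.997 over the 6 pairs, as a description over genes that share libraries. COX7C, a small subunit of complex IV, had the highest mean over the 4 groups, with 887 FPKM on soft gels and 988 on stiff gels at day 3.5, against 1798 and 1654 at day 0. COX6B1 (929 to 1192 FPKM over the groups), the common isoform of a subunit facing the intermembrane space, and ATP5I (773 to 1072 FPKM), subunit e of the ATP synthase membrane part, followed. On soft gels at day 3.5 COX6B1, at 957 FPKM, stood above COX7C. The highest complex I gene was the accessory subunit NDUFS5, with 305 FPKM on soft gels and 298 on stiff gels at day 3.5, against 541 and 514 at day 0. The highest complex III gene was UQCRH, the hinge protein near cytochrome c1, at 355 to 464 FPKM. Complex II was lower, its highest gene SDHB, the iron-sulfur subunit, reaching 130.2 FPKM on soft gels and 117 on stiff gels at day 3.5, against 155 and 186 at day 0.

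**Figure D1:**
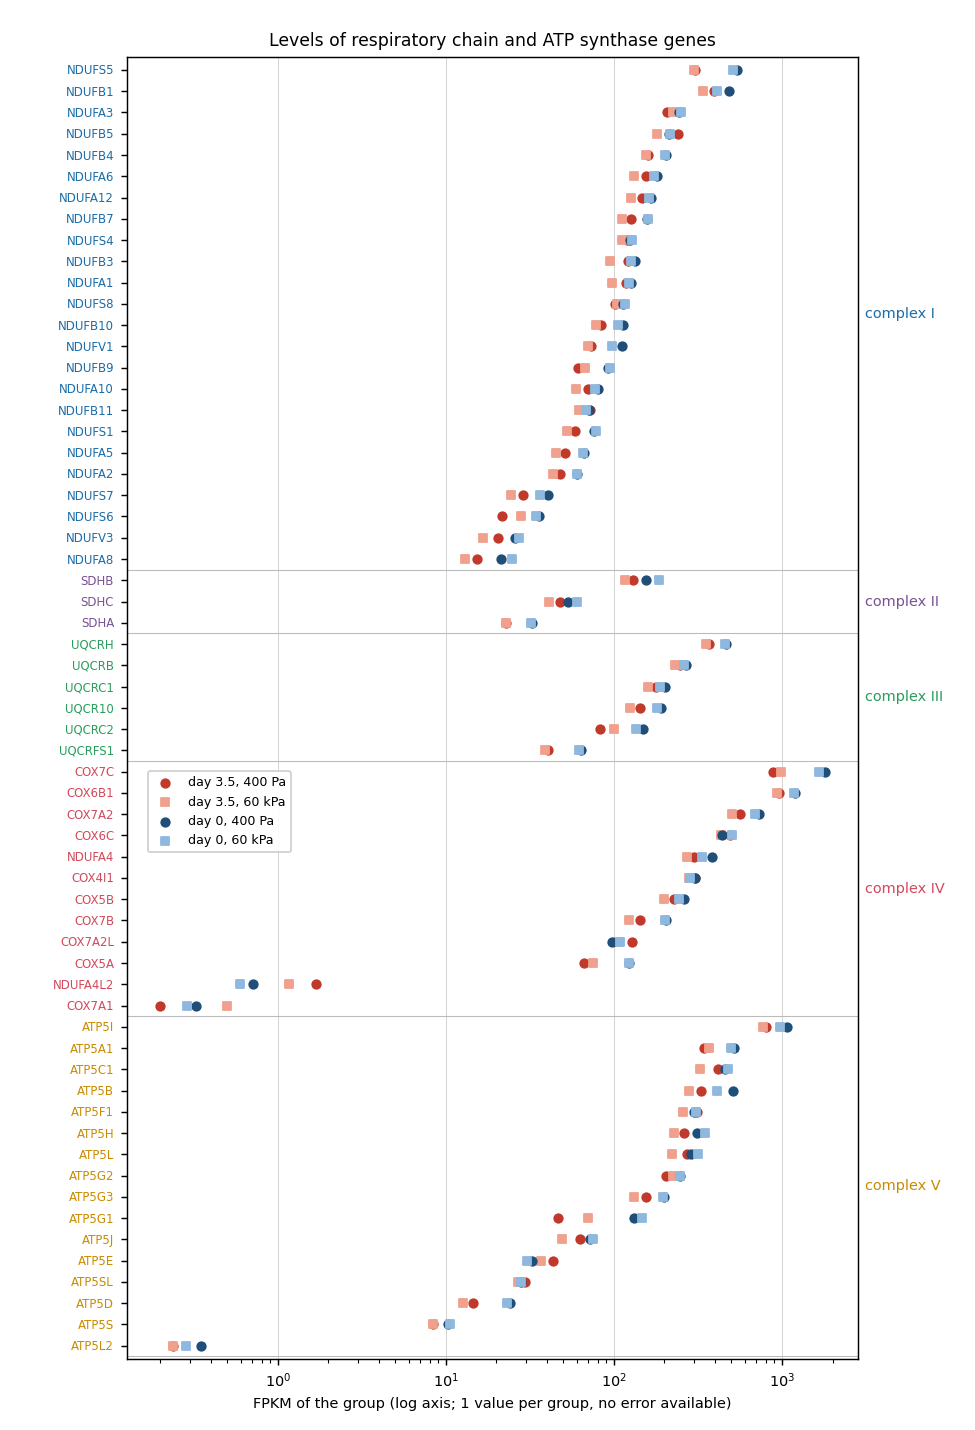
FPKM (log axis) of the members with a value above 0 in all 4 groups (1 not drawn), by complex and sorted by mean level; each symbol is 1 group value, with no error available. Most of the members drawn lie at 10 FPKM or more, and the day 3.5 symbols sit left of the day 0 symbols in most rows.

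Tissue isoforms were at or near the floor, apart from COX4I2, which reached 4.78 FPKM on soft gels at day 3.5 and is described below. COX7A1, the heart and muscle isoform of subunit 7A, had 0.199 FPKM on soft gels and 0.495 on stiff gels at day 3.5, against 0.327 and 0.288 at day 0. Its common counterpart COX7A2 was at 505 to 728 FPKM. COX8C, the testis isoform, and ATP5L2, a copy of the subunit g gene ATP5L, also stayed under 1 FPKM wherever listed. COX6A2, another muscle isoform, and ATP5J2LP, a pseudogene by its name that the symbol rule takes in, were listed at day 0 alone and were under 1 FPKM there. NDUFA4L2, a hypoxia-induced paralog of NDUFA4, had 1.68 FPKM on soft gels and 1.16 on stiff gels at day 3.5, against 0.716 and 0.593 at day 0. NDUFA4, first counted with complex I and grouped here with complex IV, was at 274 to 384 FPKM. COX7B2 and UQCRHL had no row of their own in either table.

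Soft and stiff gels were compared first in the induced cells. At day 3.5 respiratory chain and ATP synthase genes were slightly higher on 400 Pa than on 60 kPa, by a median of 0.16 on the log2(FPKM + 1) scale, and none passed the authors' test. Among 61 tested members (at least 1 FPKM in a group), 48 were higher on 400 Pa and 13 on 60 kPa. The authors' deposited table called 0 of them at q under 0.05, against 1.33% of the 18225 loci tested, and 0 had an unadjusted p under 0.05, against 5.93% of loci. The lowest q of a member in the authors' deposited table was 0.999979. Over all loci tested the median change was 0.02, with 51.9% higher on 400 Pa. Over loci with a mean of at least 10 FPKM it was 0.07, with 59.4% higher, where 46 of 58 members (79.3%) were higher. Rescaled without the 10 highest loci, the members' median was 0.10 with 42 of 61 higher, and that of loci at 10 FPKM or more was 0.01 with 50.99% higher.

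By complex the median change was above 0 in each. In complex I 20 of 25 genes were higher on 400 Pa (median 0.16), in complex II 2 of 3 (0.16), in complex III 5 of 6 (0.08), in complex IV 10 of 12 (0.17) and in the ATP synthase 11 of 15 (0.19). Complex III thus lay close to the 0.07 of loci at 10 FPKM or more. Rescaled without the 10 highest loci, the medians were 0.10 for complex I (17 of 25 higher), 0.09 for complex II (2 of 3), 0.02 for complex III (3 of 6), 0.10 for complex IV (9 of 12) and 0.13 for the ATP synthase (11 of 15). Within complex I the accessory subunits had a median of 0.19 (17 of 20 higher), while the core subunits had 0.05 (3 of 5 higher). No test was made on these list medians. The errors were larger than the changes: a single member's ratio had a median standard error (SE, the deposited log2 ratio over the deposited test statistic, an approximation) of 0.57. The 95% interval of 7 of 61 members lay wholly inside a 2-fold change, 34 of 61 if the error is taken from the p-value, and the intervals of the other genes reach past 2-fold.

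NDUFB5, an accessory subunit of the membrane arm, had the largest change of complex I towards the soft gel, with 239 FPKM on soft gels and 182 on stiff gels (change 0.40, SE 1.82, p = 0.590 in the authors' deposited table). NDUFS6, an accessory subunit of the peripheral arm that carries zinc, had 21.7 FPKM on soft gels and 27.9 on stiff gels (change -0.35, SE 0.61, p = 0.369 in the authors' deposited table). In complex II, SDHC, a membrane anchor, had 47.6 FPKM on soft gels and 40.9 on stiff gels (change 0.21), and SDHA, the flavoprotein that oxidises succinate, 22.6 and 22.7 (change -0.0018). None of these changes exceeded its error.

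In complex III, UQCR10, a small subunit, had 142 FPKM on soft gels and 125 on stiff gels (change 0.18). UQCRC2, a core protein, had 83.0 FPKM on soft gels and 99.9 on stiff gels (change -0.27, SE 0.77), against the direction of the other 5 genes of that complex. COX7A2L, which helps join complexes III and IV into supercomplexes, had 129 FPKM on soft gels and 106 on stiff gels (change 0.28, SE 0.47), and COX5A, a matrix-facing subunit, 66.8 and 74.8 (change -0.16, SE 0.51). In the ATP synthase, ATP5C1, the rotating gamma subunit, had 416 FPKM on soft gels and 326 on stiff gels (change 0.35, SE 0.67, p = 0.431 in the authors' deposited table). Each of these differences was smaller than its error.

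The lowest p of any member belonged to COX4I2, the lung and hypoxia isoform of subunit 4. It was listed at day 3.5 alone, with 4.78 FPKM on soft gels and 1.36 on stiff gels (change 1.29; deposited ratio without pseudocount, turned to 400 Pa over 60 kPa, 1.81 with an SE of 1.31; p = 0.0796 and q = 0.999979 in the authors' deposited table). Its soft-gel value was the higher one, at a level far below that of COX4I1, the common isoform, which had 305 FPKM on soft gels and 281 on stiff gels. Genes of a short hypoxia list (CA9, VEGFA, PDK1 and EGLN3) summed to 105 FPKM on soft gels and 103.5 on stiff gels at day 3.5, against 66.6 and 64.2 at day 0, with CA9 under 1 FPKM in all groups and at 0 on 400 Pa at day 0. Within that list EGLN3, an oxygen-sensing prolyl hydroxylase, had 14.7 FPKM on soft gels and 31.8 on stiff gels at day 3.5 (change -1.06, p = 0.0259 and q = 0.632 in the authors' deposited table), while VEGFA (change 0.44) and PDK1 (change 0.31) had their higher values on soft gels.

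At day 0 the members were nearly level between the gels. The median change was 0.02, the same as over all loci tested, but -0.0040 when centred on the median locus and -0.074 when rescaled without the 10 highest loci. As deposited, 37 of 59 members (62.7%) were higher on 400 Pa and 22 on 60 kPa. Of all loci tested 53.9% were higher on 400 Pa, and 54.8% of those at 10 FPKM or more. Rescaled, 11 of 59 members (18.6%) were higher on 400 Pa, against 40.2% of loci tested and 35.4% of those at 10 FPKM or more. The rescaled medians of these loci were -0.062 and -0.069, so all loci moved in the same direction as the members. The authors' deposited table called 0 of 59 at q under 0.05, against 0.139% of 17315 loci, and 0 had an unadjusted p under 0.05, against 1.86% of loci. Estimates were tighter than at day 3.5, with a median SE of 0.42 and the 95% interval of 38 of 59 members inside a 2-fold change. By complex the medians were 0.04 for complex I (16 of 25 higher on 400 Pa), -0.17 for complex II (1 of 3), 0.06 for complex III (6 of 6), 0.05 for complex IV (8 of 10) and -0.02 for the ATP synthase (6 of 15). Rescaled, they were -0.06 for complex I (4 of 25 higher), -0.26 for complex II (0 of 3) and -0.03 for complex III (2 of 6). Complex IV was then at -0.05 (2 of 10) and the ATP synthase at -0.11 (3 of 15). The medians of complexes I, III and IV thus changed sign.

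The lowest p at day 0 was that of ATP5B, the catalytic beta subunit of the ATP synthase. It had 513 FPKM on soft gels and 410.1 on stiff gels (change 0.32, SE 0.47, p = 0.336 in the authors' deposited table). ATP5B holds the small nucleolar RNA gene SNORD59A in an intron, and the part of that RNA in the value was not tested. In complex I the outermost genes were NDUFB1 (487 FPKM on soft gels and 410.4 on stiff gels, change 0.25) and NDUFA8 (21.4 and 24.8, change -0.20), both accessory subunits. SDHB had 155 FPKM on soft gels and 186 on stiff gels (change -0.26, SE 0.40). UQCRC2 had 149 FPKM on soft gels and 136 on stiff gels (change 0.13), NDUFA4 384 and 333 (change 0.21), and COX6C, a small membrane subunit of complex IV, 438 and 501 (change -0.20). None of these changes exceeded its error.

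The change between gels was then compared between the days. Of 59 members tested on both days, 30 were higher on 400 Pa on both, 6 higher on 60 kPa on both, 16 higher on 400 Pa at day 3.5 but on 60 kPa at day 0, and 7 the reverse. The difference between days was taken from both deposited ratios with the errors implied for them, in a normal approximation with Benjamini-Hochberg adjustment over 14315 loci. It passed q under 0.05 for 0 of 59 members, against 0.0768% of loci. None had an unadjusted p under 0.05 in that normal approximation, against 0.901% of loci, and the lowest was 0.451, for COX7A2L. That share of loci is below what the threshold alone would give without any difference. The approximation is therefore strict, and 0 of 59 members says little about differences of this size. COX7A2L had 129 FPKM on soft gels and 106 on stiff gels at day 3.5, and 97.4 and 109 at day 0, a difference of 0.44 between the ratios.

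**Figure D2:**
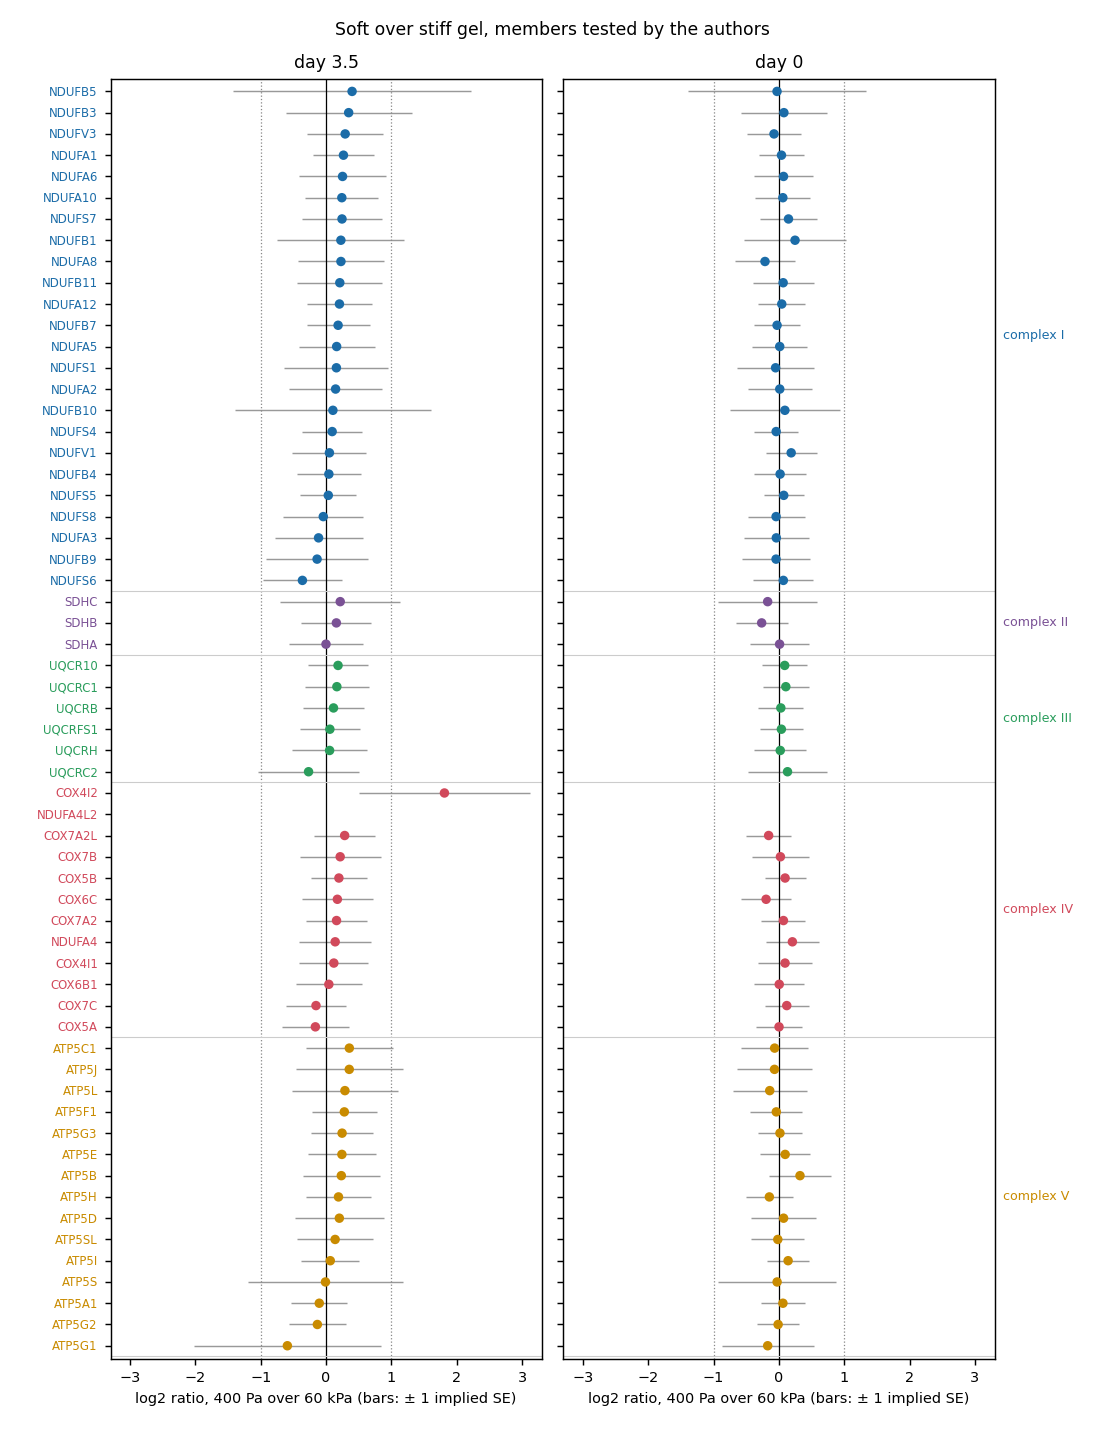
Deposited log2 ratio, turned to 400 Pa over 60 kPa and without pseudocount, for each tested member at day 3.5 (left) and day 0 (right), with bars of 1 implied standard error; dotted lines mark a 2-fold change, colours the complexes, and NDUFA4L2 (SE 5.21) and 1 other member are not drawn. Most points at day 3.5 lie right of 0 and those at day 0 gather around it, while every bar but that of COX4I2 crosses 0.

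The larger movement of these genes was with induction. Most respiratory chain and ATP synthase genes were lower at day 3.5 than at day 0 on both gels, by a median of 0.31 log2 units on 400 Pa (median -0.31) and 0.41 on 60 kPa (median -0.41). The tables of both days were made separately and give 1 value per group, so these are values side by side, with no replicate check and no test. On 400 Pa 51 of 60 members were lower at day 3.5 and 9 higher; on 60 kPa 57 were lower and 3 higher. On both gels alike 50 genes were lower and 2 higher, while 7 were higher on 400 Pa and lower on 60 kPa and 1 the reverse. All loci had a median of 0.00 on both gels, with 49.9% lower on 400 Pa and 49.97% on 60 kPa. Among loci averaging at least 10 FPKM, 54.2% were lower on 400 Pa (median -0.05) and 58.5% on 60 kPa (median -0.09).

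The shift was broad and shallow. Past 2-fold lower on 400 Pa were 2 members, ATP5G1 and COX7C, against a background of 5.99% of loci, and past 2-fold higher were 0, against 9.61%; with a pseudocount of 0.1 NDUFA4L2 also passed 2-fold, upwards, at levels under 2 FPKM (2.34 times its day 0 FPKM). On 60 kPa 1 member, ATP5G1, was past 2-fold lower, against 4.22% of loci, and 0 were higher, against 6.71%. Along the genes the changes on both gels correlated with r of 0.76 (Pearson) and rho of 0.65 (Spearman; 60 genes that share tables, a description with no p). Summed over the members, FPKM came to 0.507% of the total on 400 Pa and 0.466% on 60 kPa at day 3.5, against 0.750% and 0.758% at day 0.

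**Figure D3:**
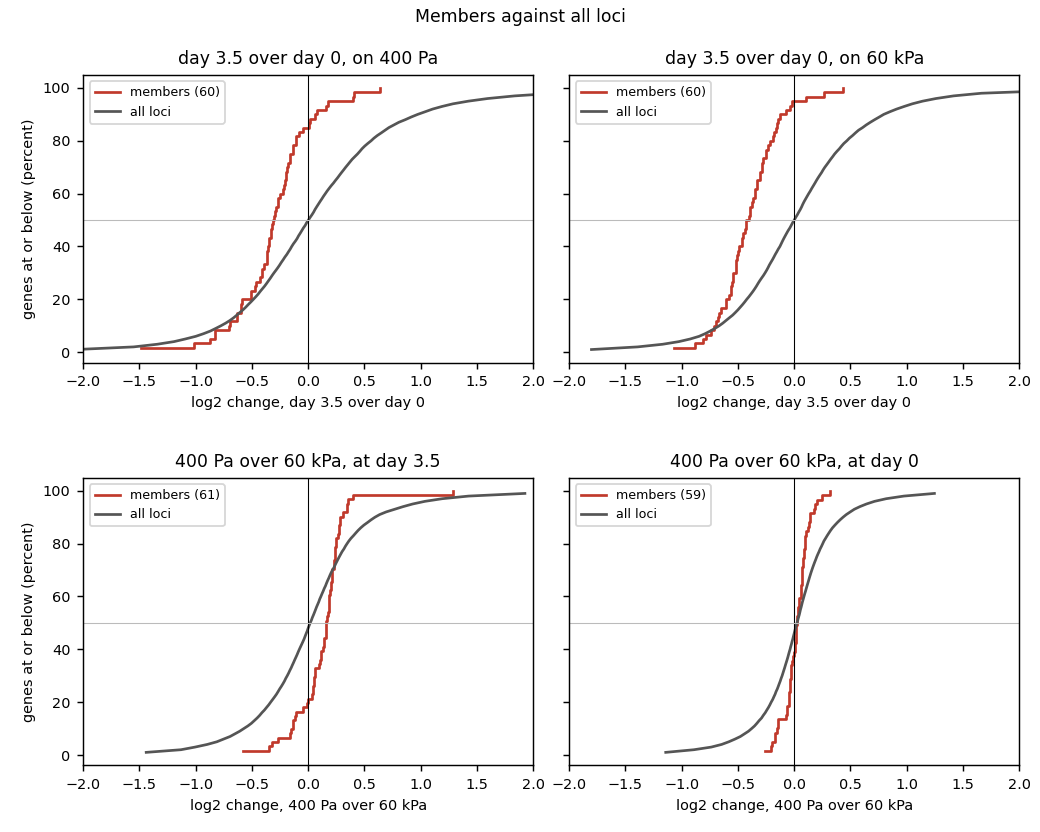
Cumulative share of genes (percent) at or below a given log2 change, for the members (red steps) and for all loci (grey), for induction on each gel (top) and for the gels on each day (bottom). With induction the red curves lie left of the grey ones over most of their height, their medians at -0.31 and -0.41 against 0.00, and at day 3.5 the red curve between gels lies to the right, at 0.16 against 0.02.

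FPKM shares depend on what else a library holds, and a few loci held much of these. Of the summed FPKM, the 10 highest loci carried 49.3% on soft gels and 52.1% on stiff gels at day 3.5, against 44.9% and 46.1% at day 0. With those loci left out of the totals, the members' share was 1.0% on 400 Pa and 0.974% on 60 kPa at day 3.5, against 1.36% and 1.41% at day 0. Rescaled that way the median locus moved by -0.07 on 400 Pa and -0.09 on 60 kPa, and the median member was at -0.38 and -0.52, so members lay below the median locus by 0.32 and 0.42 (differences of -0.32 and -0.42).

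Complex I genes were lower at day 3.5 in 23 of 25 cases on 400 Pa (median -0.33) and 24 of 25 on 60 kPa (median -0.39). All 5 listed core subunits were lower on 400 Pa (median -0.39), and 4 of the 5 on 60 kPa. NDUFS5 had the largest fold of the complex on 400 Pa (change -0.83, with -0.79 on 60 kPa), from the levels given above. NDUFA8 had the largest on 60 kPa, with 13.02 FPKM at day 3.5, against 24.8 at day 0 (change -0.88); on 400 Pa it had 15.2 FPKM at day 3.5, against 21.4 at day 0 (change -0.46). NDUFB5 went the other way on the soft gel, with 239 FPKM at day 3.5, against 212 at day 0 (change 0.18), while on 60 kPa it had 182 at day 3.5, against 216 at day 0 (change -0.25).

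Complexes II and III were lower on both gels in all their genes (3 and 6). The complex II medians were -0.25 on 400 Pa and -0.55 on 60 kPa. SDHA had the largest change of the 3 on 400 Pa, 22.6 FPKM at day 3.5 against 32.6 at day 0 (change -0.50), and SDHB on 60 kPa, 117 FPKM at day 3.5 against 186 at day 0 (change -0.67). In complex III the medians were -0.38 on 400 Pa and -0.40 on 60 kPa. UQCRC2 had 83.0 FPKM at day 3.5, against 149 at day 0, on 400 Pa (change -0.83), and UQCRFS1, the Rieske iron-sulfur protein that takes electrons from ubiquinol, had 38.9 FPKM at day 3.5, against 61.9 at day 0, on 60 kPa (change -0.65).

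Complex IV was the most divided on 400 Pa. Of its 11 genes with values, 7 were lower on 400 Pa (median -0.32) and 10 on 60 kPa (median -0.31). The 4 higher on 400 Pa were COX7A2L, COX6C (change 0.16), NDUFA4L2 and COX4I1, the last by only 0.0036. COX7C was at 0.493 of its day 0 level on 400 Pa (change -1.02) and 0.597 of it on 60 kPa (change -0.74). COX5A followed, with 66.8 FPKM at day 3.5, against 123 at day 0, on 400 Pa (change -0.88). COX4I1 stayed level, with 305 FPKM at day 3.5, against 305 at day 0, on 400 Pa, and 281 at day 3.5, against 285 at day 0, on 60 kPa. COX7A2L was higher on the soft gel, with 129 FPKM at day 3.5, against 97.4 at day 0 (change 0.40), and near level on 60 kPa, with 106 at day 3.5 against 109 at day 0 (change -0.04). NDUFA4L2 was higher at day 3.5 on both gels, at levels under 2 FPKM.

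ATP synthase genes were lower in 12 of 15 cases on 400 Pa (median -0.27) and 14 of 15 on 60 kPa (median -0.51). In the F1 head, ATP5A1 (alpha), ATP5B (beta), ATP5C1 (gamma) and ATP5D (delta) were all lower on both gels; ATP5B had 330 FPKM on soft gels and 281 on stiff gels at day 3.5, against 513 and 410.1 at day 0. ATP5E, the epsilon subunit, was higher at day 3.5, with 43.6 FPKM on soft gels and 36.8 on stiff gels, against 32.6 and 30.5 at day 0 (changes 0.41 and 0.26). ATP5S, a coupling factor, and ATP5SL are no structural subunits; ATP5S was at 8.33 to 10.6 FPKM and ATP5SL at 26.8 to 29.5 FPKM over the groups.

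ATP5G1 had the widest range of all members at 10 FPKM or more, 3.19 times between its highest and lowest group. It is 1 of 3 genes that encode the same mature subunit c, which forms the membrane ring of the ATP synthase, and differ in their import sequences. It had 46.3 FPKM on soft gels and 69.8 on stiff gels at day 3.5, against 131 and 148 at day 0 (changes -1.48 and -1.07). Both day 3.5 values were below both day 0 values, and the soft gel had the lowest. Of all loci, 2.30% lay below its change on 400 Pa and 3.71% below that on 60 kPa. ATP5G2 had 204 FPKM on soft gels and 224 on stiff gels at day 3.5, against 246 and 248 at day 0, and ATP5G3 155 and 131, against 198 and 196. ATP5G1 therefore made up 11.4% of the summed FPKM of the 3 genes on 400 Pa and 16.4% on 60 kPa at day 3.5, against 22.8% and 24.95% at day 0. Between the gels at day 3.5 its change was -0.58 with an SE of 1.44 (p = 0.646 in the authors' deposited table), and at day 0 -0.17 with an SE of 0.70.

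**Figure D4:**
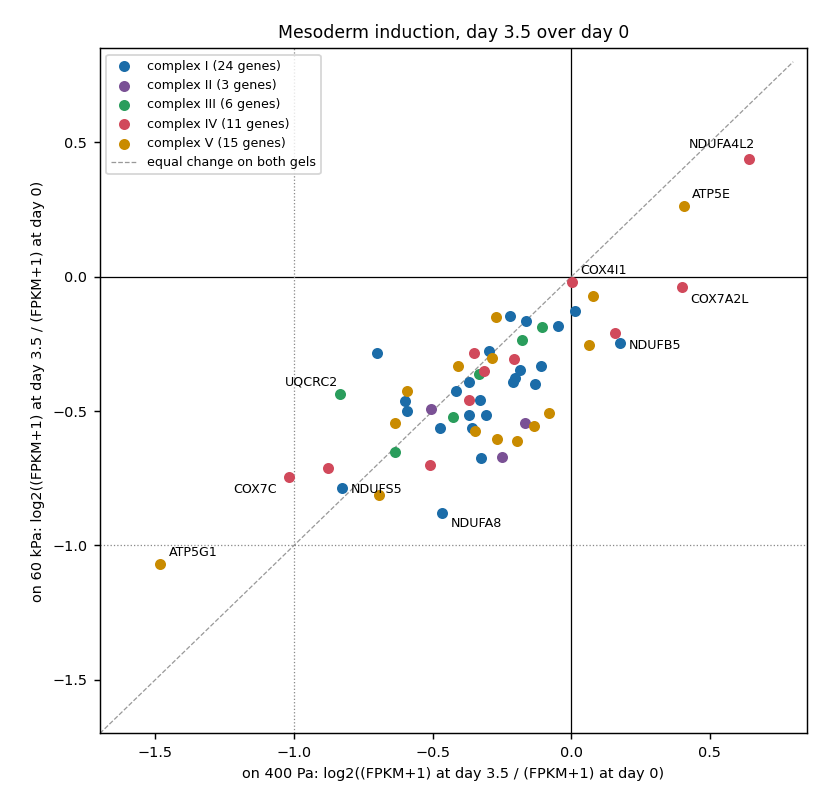
Induction change, log2((FPKM + 1) at day 3.5 / (FPKM + 1) at day 0), of 59 of the 60 members on 400 Pa (horizontal) and 60 kPa (vertical), coloured by complex; the dashed line marks equal change and the dotted lines 2-fold lower. Most genes (50) sit in the lower left quadrant, ATP5G1 lies farthest out at -1.48 and -1.07, and ATP5E and NDUFA4L2 are the 2 genes higher on both gels.

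Close copies limit the values of some members. COX7CP1, a pseudogene of COX7C, was listed at 2567 FPKM on soft gels and 2991 on stiff gels at day 3.5, against 3804 and 4204 at day 0, above COX7C itself in each group. ATP5EP2 was at 122 FPKM on soft gels and 95 on stiff gels at day 3.5, against 78.4 and 85.5 at day 0, above ATP5E. NDUFA5P11 was at 50.03 and 47.5 FPKM at day 3.5, against 58.1 and 57.3 at day 0, close to NDUFA5. Reads shared between such copies could be divided either way, so COX7C, ATP5E and NDUFA5 are uncertain. The same holds in part for ATP5G2, beside ATP5G2P4 (49.1 and 55.9 FPKM at day 3.5, against 51.03 and 58.5 at day 0), and for ATP5L, beside ATP5LP2 (70.2 and 57.1, against 54.98 and 59.7). COX7CP1 and COX7C were both lower at day 3.5, and ATP5EP2 and ATP5E both higher. The changes of COX7CP1 were smaller, -0.57 on 400 Pa and -0.49 on 60 kPa, against -1.02 and -0.74 for COX7C. Those of ATP5EP2 were 0.63 and 0.15, against 0.41 and 0.26 for ATP5E. Whether COX7C would pass 2-fold on 400 Pa with shared reads divided otherwise was not tested. COX7C also holds a small RNA gene, as 7 other members do in the GENCODE 29 annotation, which knows 65 of the 66 symbols; without these 8 genes 1 member stayed past 2-fold on 400 Pa.

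Another 19 subunit genes lay in rows that merge them with neighbours, among them NDUFA11, NDUFB8, NDUFS3, SDHD, UQCRQ, COX6A1, COX8A and ATP5O, and were not counted as members. The authors' deposited table called 0 of these rows on either day, with a lowest unadjusted p of 0.101 at day 3.5 and 0.399 at day 0. Of all loci tested, 1.33% were called at day 3.5 and 0.139% at day 0. At day 3.5 16 of 19 were higher on 400 Pa (median change 0.14), and at day 0 7 of 19 (median -0.02). With induction 15 of 19 were lower on 400 Pa (median -0.12) and 16 of 19 on 60 kPa (median -0.37). The 1 such row past 2-fold merges 3 genes, among them COX6B2, the testis isoform of subunit 6B. It had 4.69 FPKM at day 3.5, against 1.58 at day 0, on 60 kPa, where 6.71% of all loci were past 2-fold higher. The part of COX6B2 in that row cannot be told apart.

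Genes that serve the chain from outside were read from lists. Of 33 tested assembly factors 0 were called on either day at q under 0.05 in the authors' deposited table, and 0 had an unadjusted p under 0.05. Of all loci tested, 1.33% were called at day 3.5 and 0.139% at day 0. An unadjusted p under 0.05 was found for 5.93% and 1.86% of them. These shares are the background for the other lists too. The assembly factors had a median change between gels of 0.09 at day 3.5 and -0.00 at day 0. With induction 21 of 32 were lower on 400 Pa (median -0.14) and 21 of 33 on 60 kPa (median -0.33). The 1 past 2-fold lower was NDUFAF7, a methyltransferase that acts in complex I assembly, with 36.5 FPKM on soft gels and 37.1 on stiff gels at day 3.5, against 101 and 111 at day 0. Of all loci, 5.99% were past 2-fold lower on 400 Pa and 4.22% on 60 kPa. Carriers and enzymes of the TCA cycle, which feeds the chain, gave 0 calls of 24 on either day in the authors' deposited table, with 0 at an unadjusted p under 0.05. Between gels their median change was -0.01 at day 3.5 and 0.00 at day 0, with 12 of 24 higher on 400 Pa on each day. They were lower with induction in 19 of 24 cases on 400 Pa (median -0.44) and 21 of 24 on 60 kPa (median -0.51). Past 2-fold lower were 3 of them on 400 Pa, against 5.99% of all loci, and 0 on 60 kPa, against 4.22%. Among these carriers and enzymes CYCS, cytochrome c itself, had 55.8 FPKM on soft gels and 64.1 on stiff gels at day 3.5, against 128 and 127 at day 0 (changes -1.18 and -0.97). A further 5 subunits or inhibitors that the symbol rule misses (NDUFAB1, USMG5 and C14orf2, with CYC1 and ATPIF1, which the carrier list holds too) gave 0 calls and 0 with an unadjusted p under 0.05 on either day in the authors' deposited table. Between gels their median change was 0.33 at day 3.5 (4 of 5 higher on 400 Pa) and 0.02 at day 0 (3 of 5). They were lower with induction in 4 of 5 cases on 400 Pa (median -0.50) and 5 of 5 on 60 kPa (median -0.72).

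Among regulators of respiratory gene transcription and mitochondrial DNA, the authors' deposited table called 1 of 18 at day 3.5 and 0 of 19 at day 0. Of all loci tested it called 1.33% at day 3.5 and 0.139% at day 0. The called regulator was NRF1, nuclear respiratory factor 1, a transcription factor that binds the promoters of many respiratory subunit genes. It had 9.69 FPKM on soft gels and 140 on stiff gels at day 3.5 (change -3.72, p = 5e-05 and q = 0.00783 in the authors' deposited table). At day 0 it had 9.12 FPKM on soft gels and 56.2 on stiff gels (change -2.50, SE 10.3, p = 0.184 in the authors' deposited table). The day 0 difference was thus far smaller than this implied error, which rests on a deposited statistic of 0.256 (60 kPa over 400 Pa). An error taken from the deposited p would be smaller, so the size of the error is itself uncertain. Stiff-gel values were the higher ones on both days. The difference between days, -1.23 between the ratios with an SE of 10.3, did not pass q under 0.05 in the normal approximation over all loci. Its unadjusted p there was 0.905, and with an error of that size a difference of this size could not have been shown. In GENCODE 29, NRF1 holds the 5S ribosomal RNA pseudogene RNA5SP244, whose part in these values was not tested. At day 0 no regulator had an unadjusted p under 0.05 in the authors' deposited table, against 1.86% of loci tested.

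GABPA and TFAM differed between gels by less than their errors. GABPA, the DNA-binding subunit of nuclear respiratory factor 2, had 8.61 FPKM on soft gels and 9.22 on stiff gels at day 3.5, against 7.78 and 8.10 at day 0. TFAM, which packages and transcribes mitochondrial DNA, had 73.7 FPKM on soft gels and 57.9 on stiff gels at day 3.5 (change 0.34, p = 0.405 in the authors' deposited table), against 77.3 and 72.0 at day 0. PPARGC1A, a coactivator of mitochondrial biogenesis, was under 1 FPKM in all 4 groups (0.612 and 0.574 at day 3.5, 0.961 and 0.627 at day 0). Between gels the median change of the regulators was -0.05 at day 3.5 (8 of 18 higher on 400 Pa). At day 0 it was 0.01 (11 of 19). With induction 12 of 19 regulators were lower on 400 Pa (median -0.34) and 14 of 19 on 60 kPa (median -0.36). Past 2-fold were 2 lower and 0 higher on 400 Pa, against 5.99% and 9.61% of all loci. On 60 kPa 0 were lower and 2 higher, against 4.22% and 6.71%.

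**Figure D5:**
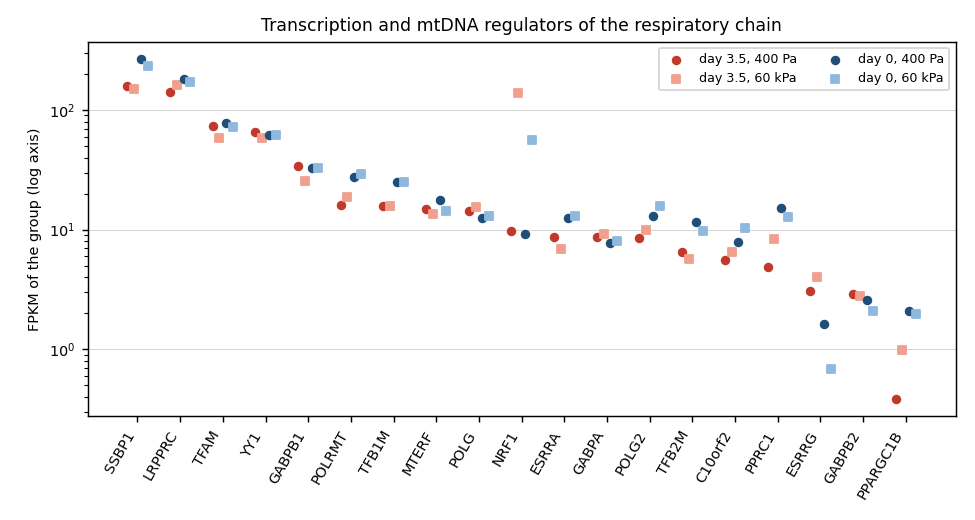
FPKM (log axis) of the 19 regulators tested on at least 1 day, in the 4 groups, 1 value each, with no error available. NRF1 stands apart in that its 60 kPa values, 140 and 56.2 FPKM, lie far above its 400 Pa values, 9.69 and 9.12.

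Because NRF1 was the called gene of these lists, the members' promoters were read for its letters. RefSeq promoters (GRCh38.p14, 250 bases before to 50 after the start) were found for 51 of the 66 members. These are 61 promoters, 8 members having more than 1 start, and a member counts if any of its promoters matches. A first search used the NRF1 palindrome, the letters GCGCATGCG followed by C; it was in 3 of 51 members (5.88%: NDUFA8, NDUFB4 and ATP5C1), against 1.52% of 27305 symbols and 3.19% of the 5266 symbols at 10 FPKM or more at day 3.5. The letters were shortened by 1 after that search, so the counts that follow come from letters chosen with its outcome known. GCGCATGCG (reverse complement CGCATGCGC), on both strands and with overlapping matches counted once, was in 9 of 51 members (17.6%), against 2.34% of all symbols and 4.84% of those at 10 FPKM or more. The 9 windows are shown with 15 bases on either side, 5′ to 3′ on the strand of the gene and the letters in capitals, so that the matches behind the count can be read.
NDUFA5: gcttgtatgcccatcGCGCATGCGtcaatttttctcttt
NDUFA8: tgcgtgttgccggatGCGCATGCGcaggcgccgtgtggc
NDUFB4: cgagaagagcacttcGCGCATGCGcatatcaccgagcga
NDUFS6: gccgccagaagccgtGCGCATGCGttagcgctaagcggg
NDUFS7: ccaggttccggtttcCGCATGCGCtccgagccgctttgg
ATP5C1: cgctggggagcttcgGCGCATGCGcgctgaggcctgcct
ATP5G2: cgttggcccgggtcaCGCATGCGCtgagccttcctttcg
ATP5I: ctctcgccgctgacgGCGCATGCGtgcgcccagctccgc
ATP5J: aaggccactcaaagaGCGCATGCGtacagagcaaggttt

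On GRCh38.p14 these windows are chr7:123557953-123557991 (NDUFA5, minus), chr9:122159760-122159798 (NDUFA8, minus), chr3:120596162-120596200 (NDUFB4, plus), chr5:1801346-1801384 (NDUFS6, plus), chr19:1383818-1383856 (NDUFS7, plus), chr10:7788140-7788178 (ATP5C1, plus), chr12:53676101-53676139 (ATP5G2, minus), chr4:674331-674369 (ATP5I, minus) and chr21:25735151-25735189 (ATP5J, minus). They belong to complex I (5 genes) and the ATP synthase (4 genes). At day 3.5 NDUFS6 and ATP5G2 were higher on 60 kPa and the other 7 on 400 Pa. Changes between gels ran from -0.35 to 0.35 with a median of 0.16, the same as the 0.16 of the 40 tested members without the letters, 32 of which were higher on 400 Pa. With induction the 9 genes had medians of -0.37 on 400 Pa and -0.51 on 60 kPa, against -0.28 and -0.39 for members without. A match is a description of the letters and not a bound site, and no match says only that the letters are not in the window.

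The YY1 letters AAGATGGCG (reverse complement CGCCATCTT) were in 6 of 51 members (11.8%), against 2.14% of all symbols and 5.89% of those at 10 FPKM or more. The first search, with a further G at the end, gave the same 6 members, against 1.46% of all symbols and 4.18% of those at 10 FPKM or more. YY1 is a zinc finger factor with sites near many transcription starts. Its windows are shown because 4 of the 5 complexes have one, in each case on the strand of the gene.
NDUFA6: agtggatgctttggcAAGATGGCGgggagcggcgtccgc
NDUFS4: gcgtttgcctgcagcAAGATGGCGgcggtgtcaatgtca
NDUFS7: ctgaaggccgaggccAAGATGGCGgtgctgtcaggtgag
SDHB: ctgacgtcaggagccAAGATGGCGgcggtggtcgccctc
UQCRC1: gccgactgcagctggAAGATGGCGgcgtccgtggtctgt
ATP5J: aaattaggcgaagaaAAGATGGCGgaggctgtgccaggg

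These windows are chr22:42090724-42090762 (NDUFA6, minus), chr5:53560645-53560683 (NDUFS4, plus), chr19:1383909-1383947 (NDUFS7, plus), chr1:17053999-17054037 (SDHB, minus), chr3:48609600-48609638 (UQCRC1, minus) and chr21:25735088-25735126 (ATP5J, minus). In ATP5J the letters begin at -57 from the start, and in the other 5 genes they begin at bases 11 to 26 of the transcript. The YY1 letters contain ATG, the letters of a start codon. A match inside the transcript can therefore lie on a translation start, and the part of such starts in the count was not tested. All 6 genes were higher on 400 Pa at day 3.5 (changes 0.09 to 0.35), against 33 of the 43 tested members without the letters. ATP5J, coupling factor 6 of the ATP synthase stalk, had 62.6 FPKM on soft gels and 49.0 on stiff gels at day 3.5, against 71.8 and 75.3 at day 0. YY1 itself had 65.8 FPKM on soft gels and 58.5 on stiff gels at day 3.5, against 62.2 and 61.6 at day 0. The GABPA letters CCGGAAGT (reverse complement ACTTCCGG) were in 6 of 51 members (11.8%), the same share as the 11.8% among symbols at 10 FPKM or more, and in 4.95% of all symbols. Their holders lie in complexes I, III, IV and V, so a spread over most complexes is not particular to the YY1 letters.

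ATP5J and NDUFS7, a core subunit of complex I with an iron-sulfur cluster, held the NRF1 and the YY1 letters in 1 promoter, and these are shown whole with both in capitals. ATP5J has 2 starts in that table, and the promoter shown is the one of the 2 that holds both; NDUFS7 has 1. They are chr21:25735005-25735304 (minus strand) for ATP5J and chr19:1383657-1383956 (plus strand) for NDUFS7.
ATP5J: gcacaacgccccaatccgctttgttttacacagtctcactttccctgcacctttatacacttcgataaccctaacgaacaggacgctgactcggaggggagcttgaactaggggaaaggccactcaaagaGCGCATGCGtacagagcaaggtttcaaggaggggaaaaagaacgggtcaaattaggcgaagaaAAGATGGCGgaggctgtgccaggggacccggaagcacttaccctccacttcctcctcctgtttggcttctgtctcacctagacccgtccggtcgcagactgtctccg
NDUFS7: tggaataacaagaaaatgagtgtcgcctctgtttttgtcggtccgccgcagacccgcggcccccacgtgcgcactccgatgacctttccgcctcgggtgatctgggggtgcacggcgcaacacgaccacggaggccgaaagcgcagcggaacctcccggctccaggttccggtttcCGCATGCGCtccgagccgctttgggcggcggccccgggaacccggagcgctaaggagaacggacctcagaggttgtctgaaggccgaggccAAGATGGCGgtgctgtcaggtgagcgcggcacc

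NDUFS7 had 28.7 FPKM on soft gels and 24.3 on stiff gels at day 3.5, against 40.3 and 36.4 at day 0. Between the gels both genes were higher on 400 Pa at day 3.5 (changes 0.35 for ATP5J and 0.23 for NDUFS7), by less than their errors (SE 0.82 and 0.61).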

How the data were processed

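The authors deposited 1 table per day with, per gene locus, an FPKM value for each gel, a log2 ratio (stiff over soft), a p-value, a q-value and the statistic of their test, a score. They were made with Cufflinks on hg19, per the submitters' processing notes; for versions, aligner, annotation and strand, the setting is not given in the sources used here. Members, lists and tests were chosen with earlier results of these data known. Each change is the log2 of (FPKM + 1), soft minus stiff, opposite in sign to the deposited ratio, and the pseudocount of 1 understates changes of low genes. Calls are the deposited q under 0.05, over loci with at least 1 FPKM in a group. The difference between days used a normal approximation, and how well it holds for these loci was not tested. Recomputed Benjamini-Hochberg values differed from the deposited q by at most 5.24e-07. Named members are those with the highest mean or the largest change per complex, day or gel (at least 5 FPKM) and the paralog pairs; the holders of promoter letters, the pseudogenes, NDUFA5, NDUFAF7, COX6B1, COX6B2, ATP5S and ATP5SL were added after their values were seen. The promoter letters of NRF1 and YY1 were shortened by 1 after a first search. Members not named are given by counts and medians alone, and results that need the name of 1 member are not reported here. Software was matplotlib 3.10.9, scipy 1.17.1, numpy 2.4.6, pandas 2.3.3 and Python 3.11.15.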

Additional observations from a re-analysis of the deposited data

How the results depend on the processing

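Calls between gels stayed at 0 members on either day with other q thresholds (0.01, 0.1), an unadjusted p under 0.05, other FPKM minimums (5, none), a new adjustment and the merged rows. The difference between days stayed at 0 members with q under 0.1, an unadjusted p under 0.05, an FPKM minimum of 5 and centring on the median locus. Of 64 alternative values, 4 moved, by a change of sign, by more than 0.1 for a median or by more than 1.5 times for a count. With a pseudocount of 0.1, 3 members were past 2-fold on 400 Pa, against 2 as reported. The day 0 median change, 0.02 as reported, was -0.0040 centred on the median locus and -0.074 rescaled without the 10 highest loci, so its direction is not fixed; at day 3.5 it was 0.14 and 0.10 under these. The median induction change on 60 kPa was -0.52 after that rescaling. Without members that hold a small RNA gene, 1 member was past 2-fold on 400 Pa, COX7C being the one left out. With the merged rows, an alternative chosen after seeing the data, the medians were 0.16 at day 3.5, 0.01 at day 0, -0.27 (induction on 400 Pa) and -0.39 (on 60 kPa). No paired analysis was possible because the tables hold 1 value per group and none per library, and for the same reason no library could be left out. Depth is unknown, so what it limits cannot be stated beyond the implied errors.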
